A study of Mus musculus with 8 samples.

Results

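Claudins and their partners at the tight junction were followed as 9 genes of the 23238 symbols in the deposited count tables of mouse uterine stroma: Cldn1, Cldn3, Cldn4, Cldn7, Cldn10, Cldn23, Ocln, Tjp1 and F11r. The genes were taken by symbol, and all 9 passed the filter on low counts. Cldn1 and Cldn4 were chosen by their CPM values in these same libraries, which were lower after estradiol. Their estradiol values are therefore given as a description with no test, and the tests of the estradiol response cover the other 7.

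Tight junctions seal the space between neighbouring epithelial or endothelial cells and set which ions and solutes pass between them. Claudins span the membrane and form the strands of the junction. Some tighten the seal and others form pores. Occludin joins the strands, junctional adhesion molecule A (F11r) lies beside them, and ZO-1 (Tjp1) ties them to actin inside the cell. In the uterus such junctions belong to the luminal and glandular epithelium and to blood vessels, and estradiol remodels that epithelium.

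The libraries came from uterine stromal cells of ovariectomized mice, which lack their own ovarian hormones, on a strain labelled C57BL/6-ICR. Controls carried Atg7f/f, the floxed alleles without Cre in their label. The deleted mice, labelled Atg7d/d, came from Atg7f/f;Amhr2cre, in which Cre under the Amhr2 promoter acts in the uterine mesenchyme and removes Atg7, a gene needed for autophagy. Each genotype received oil, the vehicle, or estradiol (E2), giving 4 groups of 2 libraries: control oil, control estradiol, deleted oil and deleted estradiol. No Cre-only group was analysed here, and the sources used here do not give the dose, the time after injection, the age or the way the stroma was separated. Nothing in the labels says that the 2 libraries of a group are separate animals, so p-values measure the spread between libraries, which may be technical.

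Libraries were made from 500 ng of total RNA with a kit that reads the 3' end of each transcript. Depth ran from 5458390 to 6951080 counts per library, and values are CPM, the reads of a gene scaled to 1000000 reads of the tested genes after TMM adjustment. Atg7 itself had 20 to 33 reads in each library and differed by -0.09 ± 0.42 on the log2 scale (SE) between deleted and control oil libraries. Reads at the 3' end do not check the loss of internal exons, so the genotype labels were not verified by this gene. The 16 fibroblast markers that stand for stroma summed to 2146 to 3303 CPM in the oil libraries and 7066 to 10335 CPM in the estradiol libraries. Col1a2 and Col1a1 were at 88.4 and 44.1 CPM in control oil and 2215 and 1542 CPM in control estradiol libraries (means of 2). Dcn was at 1137 and 725 CPM. By edgeR's test 10 of the 16 rose and 2 fell in the controls, beside 15.8% and 14.0% of all tested genes. In the deleted libraries 10 rose and 1 fell, beside 13.1% and 11.2%. The sum thus includes genes that estradiol raised.

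The labelled stroma also held epithelial RNA, and its level differed between libraries of the same group. All 24 epithelium markers had reads, and Cdh1 (E-cadherin), Krt18 and Krt8 (keratins) led in the control oil libraries at 2578, 2131 and 1535 CPM (means of 2). In the control estradiol libraries these 3 were at 494, 198 and 187 CPM (means of 2), and Sprr2f, a marker that rose with estradiol, led at 924 CPM. Their sum was 11761 CPM in control oil library 1 and 4052 CPM in control oil library 2, against 7025 and 3271 CPM in the deleted oil libraries. After estradiol it was 1785 and 3928 CPM in the controls and 1620 and 2164 CPM in the deleted libraries. In each genotype the first oil library was thus more than 2-fold above the second, and 8 of the 9 genes, all but Tjp1, had the same order in the oil libraries. The part of epithelial RNA in the results was not tested, and ratios to these markers are given further on.

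Cldn4 and Cldn3 are neighbours on chromosome 5, 39279 bases apart with 0 protein-coding genes between them in GENCODE M21 (GRCm38, the mm10 build of the submitters' processing notes). Cldn4 lies at chr5:134945119-134946934 on the minus strand and Cldn3 at chr5:134986214-134987472 on the plus strand, each as 1 exon. Cldn1 lies at chr16:26356642-26371841 on the minus strand. The 250 bases before the RefSeq start of each (build GRCm38.p6) are shown because these 3 had the lowest estradiol levels relative to oil among the 9 in the controls. Capitals mark matches on either strand to 5 motifs: the estrogen response element (GGTCA and TGACC with 3 bases between them), its half-site GGTCA, the AP-1 motif TGANTCA, the grainyhead motif AACCNGTT and the GC box GGGCGG. The half-site is also part of the full element.
Cldn4, chr5:134946935-134947184, minus strand: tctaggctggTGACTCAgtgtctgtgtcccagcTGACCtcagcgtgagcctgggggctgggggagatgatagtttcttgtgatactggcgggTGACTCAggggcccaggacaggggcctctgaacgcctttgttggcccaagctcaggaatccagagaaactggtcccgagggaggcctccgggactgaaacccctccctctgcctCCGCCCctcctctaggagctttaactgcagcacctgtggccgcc
Cldn1, chr16:26371840-26372089, minus strand: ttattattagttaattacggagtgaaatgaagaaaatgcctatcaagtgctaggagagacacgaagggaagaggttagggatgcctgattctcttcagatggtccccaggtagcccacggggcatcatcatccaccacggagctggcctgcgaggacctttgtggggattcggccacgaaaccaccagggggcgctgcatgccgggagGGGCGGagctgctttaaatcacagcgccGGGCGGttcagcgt
Cldn3, chr5:134985964-134986213, plus strand: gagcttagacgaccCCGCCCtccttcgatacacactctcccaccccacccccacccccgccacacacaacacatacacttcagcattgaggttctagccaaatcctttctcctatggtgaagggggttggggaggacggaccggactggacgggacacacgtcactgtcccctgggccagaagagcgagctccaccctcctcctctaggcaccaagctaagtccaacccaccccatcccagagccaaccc

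The Cldn4 window held 2 AP-1 matches, beginning 240 and 158 bases before the start, 1 estrogen half-site at 217 bases and 1 GC box at 44 bases. AP-1 matches were present in 6.75% of the 32851 RefSeq windows of this length, half-sites in 35.2% and GC boxes in 32.7%. Cldn1 had 2 GC boxes, at 42 and 14 bases, and Cldn3 had 1 at 236 bases. None of the windows of the members in the table held the full estrogen element, present in 0.0639% of windows, or the grainyhead motif, present in 1.79%. Cldn23 was not in the table of start sites. These matches describe letters and show no binding.

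Cldn4 was the most abundant of the 9 by reads and was about 8-fold lower with estradiol in both genotypes. It codes for a sealing claudin of many epithelia. Control oil libraries held 6414 and 2324 CPM, and control estradiol libraries held 305 and 749 CPM. Deleted oil libraries held 4233 and 1747 CPM, and deleted estradiol libraries held 304 and 440.0 CPM. Every oil library was above every estradiol library, although the 2 libraries within each oil group differed more than 2-fold. The estradiol difference was -3.05 ± 0.63 on the log2 scale (SE) in the controls and -3.01 ± 0.63 in the deleted libraries, with no test because the gene was picked for it. Without control oil library 1 the control difference was -2.12.

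Cldn1 had the lowest estradiol level relative to oil of all 9. Claudin-1 is a barrier claudin known from the epidermis, where its loss makes the skin leak water. Control oil libraries held 211 and 100.2 CPM, and control estradiol libraries held 2.65 and 8.61 CPM. Deleted oil libraries held 151 and 74.4 CPM, and deleted estradiol libraries held 4.86 and 7.12 CPM. The lowest oil library was thus well above the highest estradiol library. The log2 difference was -4.80 ± 0.60 in the controls and -4.22 ± 0.60 in the deleted libraries, again as a description.

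In bulk RNA, fewer cells of a type and less RNA per cell cannot be told apart, and this applies to every level given here. The plot of all 9 genes by library shows how the 2 libraries of a group lie apart.

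**Figure D1:**
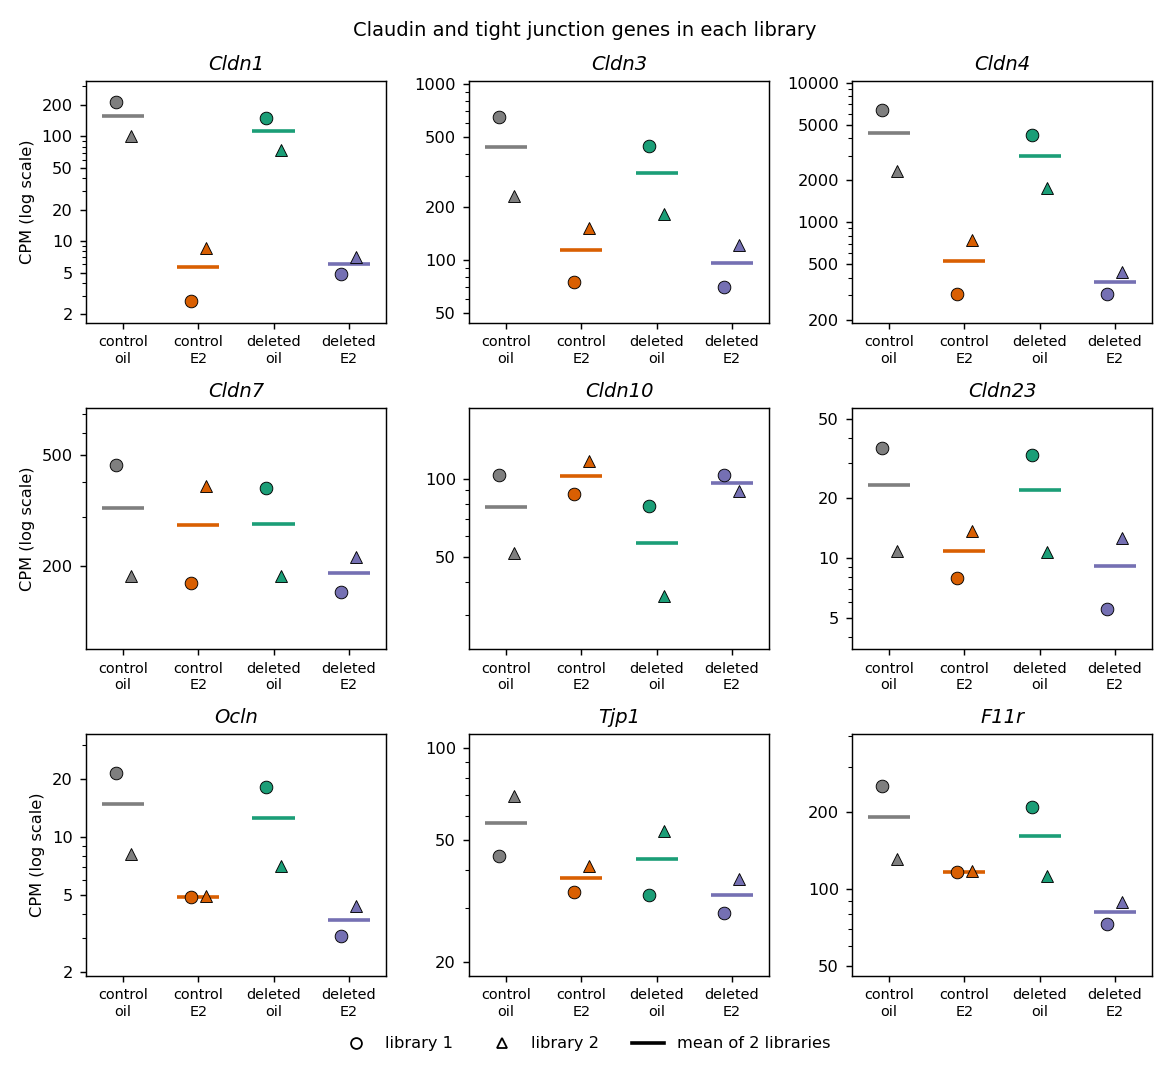
CPM of the 9 genes in each of the 8 libraries on a log axis, by group, with 1 point per library and a line at the mean of 2 libraries. Cldn1 and Cldn4 separate oil from estradiol in both genotypes, while Cldn7 values of the control groups overlap (184 and 461 CPM in oil, 175 and 387 CPM after estradiol).

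Cldn3 fell with estradiol in the controls and was the only one of the 7 tested genes to be called, with an adjusted p under 0.05 by edgeR's quasi-likelihood test. That is 1 of 7 where 29.8% of the 13347 tested genes were called in this comparison, and 14.0% were called lower. Claudin-3 is a sealing claudin close in sequence to claudin-4. Control oil libraries held 649 and 232 CPM and control estradiol libraries 75.0 and 153 CPM. Deleted oil libraries held 442 and 183 CPM and deleted estradiol libraries 70.5 and 122 CPM. The groups did not overlap in either genotype.

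The log2 difference of Cldn3 was -1.95 ± 0.58 in the controls (edgeR adjusted p 0.0338) and -1.70 ± 0.58 in the deleted libraries (edgeR adjusted p 0.0616). The call in the controls rests on single libraries. It ended without control oil library 1 (log2 difference -1.005, edgeR adjusted p 0.176), without control estradiol library 1 (edgeR adjusted p 0.198) or library 2 (edgeR adjusted p 0.0623), and without either deleted estradiol library (edgeR adjusted p 0.0536 and 0.0538). Wbscr25, an antisense gene overlapping Cldn3, had 1 to 12 reads in a library. The sources used here do not give the counting strand, so reads of these overlapping genes could be mixed.

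Cldn7 levels overlapped between oil and estradiol libraries in the controls. Claudin-7 lies along the sides of epithelial cells and binds EpCAM. Control oil libraries held 461 and 184 CPM and control estradiol libraries 175 and 387 CPM. Deleted oil libraries held 381 and 185 CPM and deleted estradiol libraries 162 and 216 CPM. The log2 differences were -0.20 ± 0.50 (95% interval -1.34 to 0.94, edgeR adjusted p 0.788) and -0.59 ± 0.51 (95% interval -1.73 to 0.56, edgeR adjusted p 0.429). These intervals still hold a change of more than 2-fold downward.

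Cldn10 was the only one of the 9 whose estradiol means were above its oil means in both genotypes, and it was not called in either. It codes for claudin-10, which forms ion pores whose charge preference depends on the isoform. Control oil libraries held 103 and 52.0 CPM and control estradiol libraries 87.2 and 117 CPM. The deleted oil libraries were at 78.2 and 35.5 CPM, below both deleted estradiol libraries at 103 and 89.8 CPM. The log2 differences were 0.39 ± 0.40 (95% interval -0.50 to 1.28, edgeR adjusted p 0.483) and 0.76 ± 0.40 (95% interval -0.14 to 1.66, edgeR adjusted p 0.190). RefSeq gives Cldn10 start windows at 2 places, and 3' reads do not separate their transcripts.

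Cldn23, a distant member of the claudin family, did not pass the test in either genotype. It held 35.7 and 10.8 CPM in control oil and 7.96 and 13.7 CPM in control estradiol libraries, which overlap. In deleted libraries it held 33.0 and 10.7 CPM with oil and 5.58 and 12.6 CPM with estradiol. The log2 differences were -1.11 ± 0.67 (edgeR adjusted p 0.236) and -1.26 ± 0.68 (edgeR adjusted p 0.204).

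Ocln, the gene of occludin, missed the threshold narrowly in both genotypes. Control oil libraries held 21.3 and 8.14 CPM and control estradiol libraries 4.89 and 4.92 CPM. With the deletion, oil libraries held 18.0 and 7.09 CPM and deleted estradiol libraries 3.06 and 4.37 CPM. No oil library was as low as any estradiol library. The log2 differences were -1.59 ± 0.55 (edgeR adjusted p 0.0553) and -1.75 ± 0.57 (edgeR adjusted p 0.0527). Ocln passed the test in 7 of 17 other settings in the controls and in 8 of 17 in the deleted libraries.

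F11r and Tjp1 lie at the membrane and on its inner side, and neither passed the test. F11r held 254 and 132 CPM in control oil and 117 and 118 CPM in control estradiol libraries. In deleted libraries it held 209 and 113 CPM with oil and 73.2 and 88.8 CPM with estradiol. Oil and estradiol libraries of the same genotype did not overlap, and the log2 differences were -0.72 ± 0.35 (edgeR adjusted p 0.146) and -0.99 ± 0.35 (edgeR adjusted p 0.0678).

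Tjp1 was the exception in the order of the libraries, since it was higher in the second oil library of each genotype. It held 44.2 and 69.4 CPM in control oil and 33.8 and 41.0 CPM in control estradiol libraries. In deleted stroma the oil libraries held 33.0 and 53.6 CPM and deleted estradiol libraries 28.8 and 37.4 CPM. The log2 differences were -0.60 ± 0.30 (edgeR adjusted p 0.158) and -0.39 ± 0.30 (edgeR adjusted p 0.377). ZO-1 is made by many cell types outside epithelia.

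**Figure D2:**
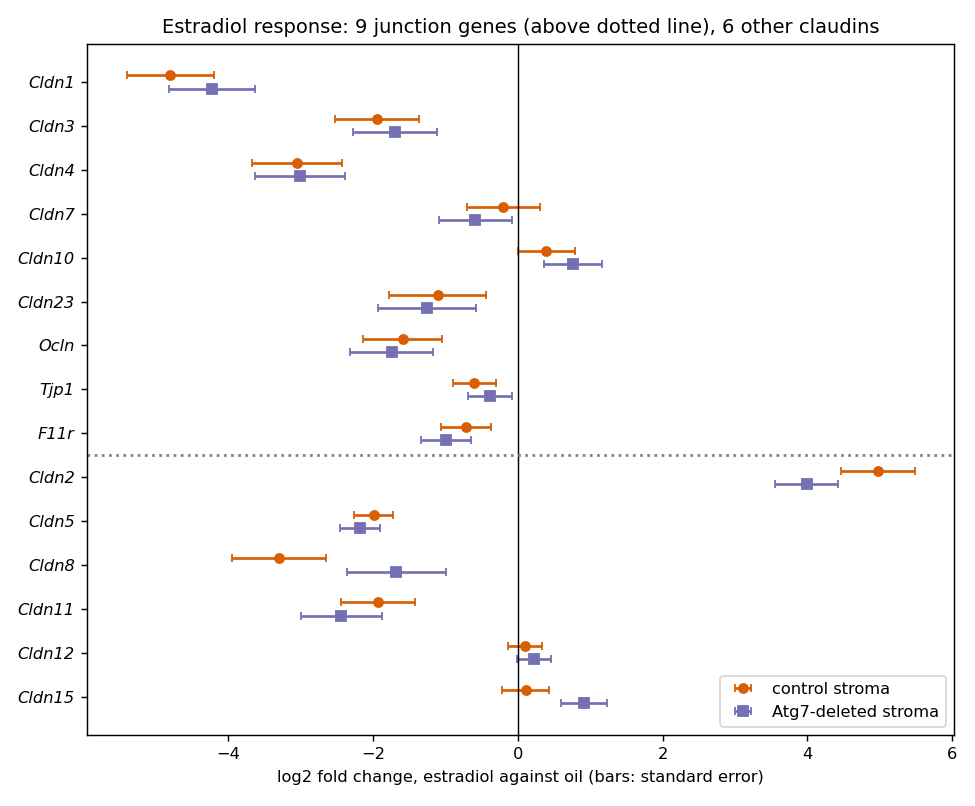
Log2 difference between estradiol and oil, with bars of 1 standard error, in control and deleted stroma, for the 9 genes above the dotted line and 6 other claudins below it. Of the 9 genes, Cldn1 and Cldn4 lie farthest below 0 (-4.80 and -3.05 in the controls), and Cldn10 lies above 0 in both genotypes (0.39 and 0.76). Below the dotted line, Cldn8 is at -3.30 and Cldn2 at 4.97 in the controls.

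By counts, 1 of the 7 tested genes passed in the controls, as lower, where 29.8% of all tested genes were called and 14.0% were called lower. None of the 7 was called higher, against 15.8%. There, 2 of 7 had an unadjusted edgeR p under 0.05, against 42.7% of all tested genes, and DESeq2 called 2. Without control oil library 2, 4 passed, without either deleted oil library 2 passed, and without any 1 of the other 5 libraries 0 passed. In the deleted libraries 0 of 7 passed by edgeR, where 24.3% of all tested genes were called and 11.2% were called lower. DESeq2 called 2 of 7 there and 3 of 7 had an unadjusted edgeR p under 0.05, against 39.1% of all tested genes. Without control oil library 1, control oil library 2 or deleted oil library 2, 3 of 7 passed. Without overlap, 4 of 7 were lower after estradiol in the controls, against 31.7% of all tested genes, and 0 of 7 were higher, against 33.8% (65.5% in either direction). In the deleted libraries 3 of 7 were lower, against 32.7%, and 1 of 7 was higher, against 35.5% (68.2% in either direction). The median log2 difference over all 9 was -1.11 in the controls and -1.26 in the deleted libraries, beside 0.01 and 0.02 over all tested genes. The 2 picked genes are in these medians.

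Levels of the 9 genes in the control oil libraries ran from 4369 CPM (mean of 2) for Cldn4 down to 14.7 CPM for Ocln. Cldn3 followed Cldn4 at 440.2 CPM, then Cldn7 at 323 CPM, F11r at 193 CPM, Cldn1 at 156 CPM, Cldn10 at 77.7 CPM, Tjp1 at 56.8 CPM and Cldn23 at 23.2 CPM. Of these neighbours, Cldn4 did not overlap with Cldn3 and Tjp1 did not overlap with Cldn23. All other neighbours in the order overlapped between libraries. Within each control oil library the order held for every pair of neighbours except Cldn10 and Tjp1. These were at 103 and 44.2 CPM in library 1 and at 52.0 and 69.4 CPM in library 2. With 3' reads a transcript gives about 1 read whatever its length, so these are read shares per transcript end.

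The make-up of the claudin reads also differed between oil and estradiol. Of all reads from 32 claudin symbols, Cldn4 took 71.1% to 79.5% in the oil libraries and 40.4% to 48.7% in the estradiol libraries. The share of Cldn7 was 5.72% to 7.53% in oil and 21.5% to 25.1% after estradiol. Cldn10 made up 1.28% to 1.63% in oil and 7.60% to 13.7% after estradiol. Cldn1 made up 2.62% to 3.14% and then 0.361% to 0.722%. These shares sum to a fixed total and depend on the picked Cldn4, so they are described with no test.

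**Figure D3:**
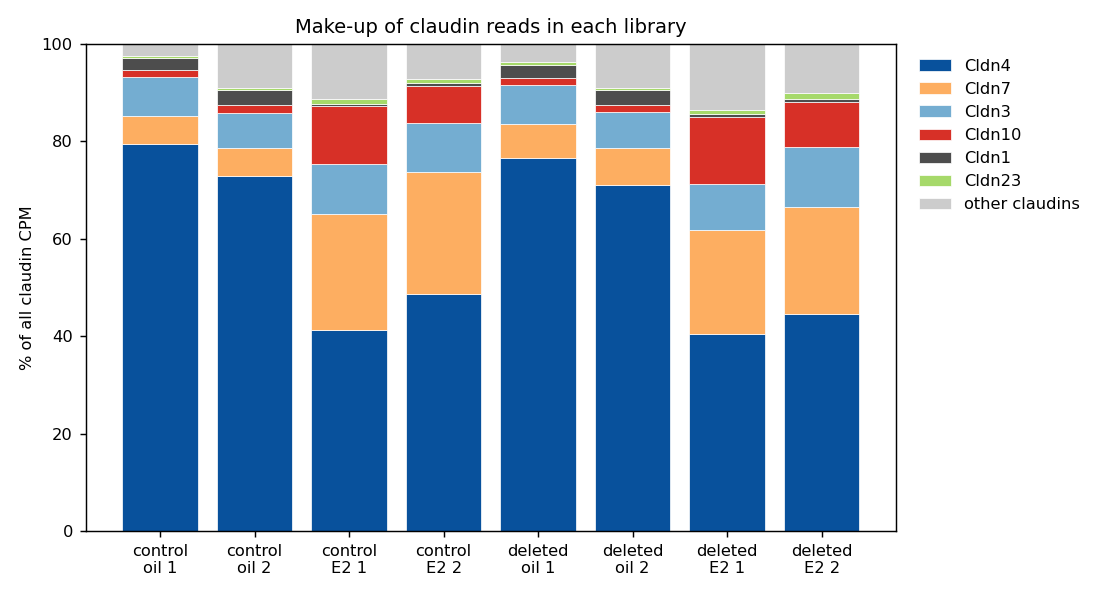
Share of all claudin reads held by each claudin, in percent, for the 8 libraries. Cldn4 held 71.1% to 79.5% in oil and 40.4% to 48.7% after estradiol, while Cldn7 held 5.72% to 7.53% and 21.5% to 25.1%.

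Set against epithelial RNA, Cldn1 was lower with estradiol by all 3 measures tried, Cldn4 by 2 of them, and Cldn7 and Cldn10 were higher by all 3. For the other 5 genes, all 4 estradiol libraries were above all 4 oil libraries per CPM of the keratins Krt8 and Krt18. Per marker sum the libraries of the treatments overlapped. Per CPM of Epcam, F11r was at 0.505 to 0.640 in oil and 0.753 to 1.28 after estradiol. Cldn3, Cldn23, Ocln and Tjp1 overlapped by that measure. These ratios were chosen after the values were seen, carry no test, and include the picked genes. Per CPM of the summed epithelium markers, Cldn4 was 0.534 to 0.603 in the oil libraries and 0.171 to 0.203 in the estradiol libraries, and Cldn1 was 0.0180 to 0.0247 and then 0.00149 to 0.00329. In contrast, Cldn7 was 0.0392 to 0.0566 in oil and 0.0979 to 0.0997 after estradiol, so all 4 estradiol libraries lay above all 4 oil libraries. Of the 24 markers, 12 fell and 4 rose in the controls, where 14.0% of all tested genes fell and 15.8% rose, and 8 fell and 4 rose in the deleted libraries, where 11.2% fell and 13.1% rose. Those that rose in the controls were Sprr2f, Ltf, Lcn2 and Spp1. Sprr2f, of a family of closely similar genes whose reads may be shared, was at 63.4 CPM in control oil and 924 CPM in control estradiol libraries (means of 2), and at 22.3 and 376 CPM in deleted stroma. Its 2 libraries differed 11.1-fold in control oil and 3.79-fold in control estradiol, and 4.25-fold and 1.58-fold in deleted stroma. Ltf and Lcn2, which code for lactotransferrin and lipocalin-2, reached 144 and 217 CPM in the control estradiol libraries. The marker sum that serves as denominator thus includes genes that estradiol raised. The keratin denominator itself fell: Krt8 and Krt18 had log2 differences of -3.04 and -3.43 in the controls and -2.73 and -3.00 in the deleted libraries. Those of Epcam were -1.46 and -1.49. A gene that fell less than the keratins is therefore higher per keratin after estradiol.

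The ratio of Cldn4 depended on the denominator. Per CPM of the keratins Krt8 and Krt18, Cldn4 was 1.16 to 1.32 in oil and 1.15 to 1.42 after estradiol, with log2 differences of 0.13 and -0.11. Per CPM of Epcam, its log2 differences were -1.57 in the controls and -1.47 in the deleted libraries. The log2 differences of Cldn1 were -1.78 and -1.39 per Krt8 and Krt18 and -3.40 and -2.72 per Epcam. Cldn3, the gene called lower in the controls, was at 1.28 and 1.18 per Krt8 and Krt18, above oil, and at -0.47 and -0.25 per marker sum and -0.43 and -0.17 per Epcam. Per Krt8 and Krt18 the log2 differences in the controls were 2.24 for Cldn23, 1.81 for Ocln, 2.22 for Tjp1 and 2.56 for F11r. Per marker sum they were 0.48, 0.063, 0.49 and 0.82 for the same genes, and in deleted stroma 0.22, -0.28, 0.73 and 0.42.

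**Figure D4:**
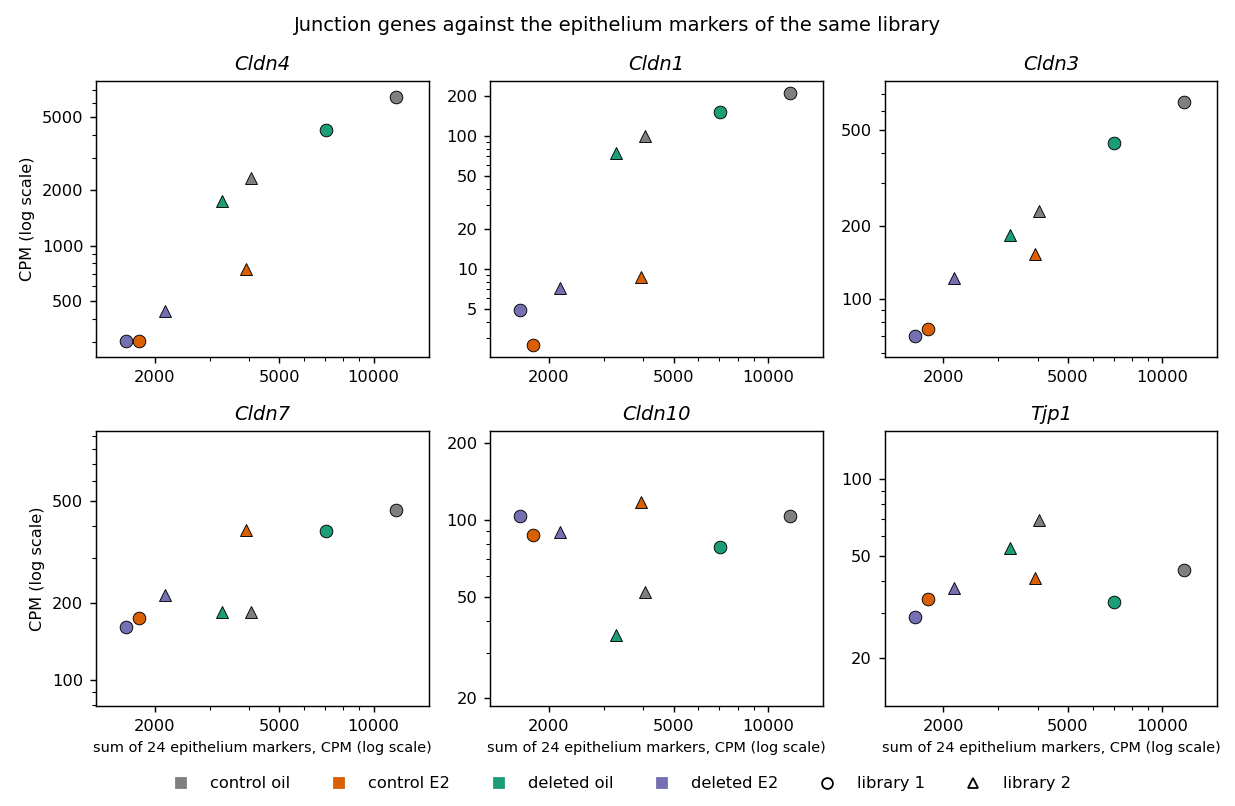
Summed CPM of the 24 epithelium markers on the horizontal axis and CPM of 6 of the genes on the vertical axis, both log scales, with 1 point per library coloured by group. Control estradiol library 2 and control oil library 2 have marker sums of 3928 and 4052 CPM, with Cldn4 at 749 and 2324 CPM and Cldn7 at 387 and 184 CPM. Of these sums, Krt8 is 262 and 799 CPM and Krt18 264 and 1013 CPM.

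Across the 8 libraries, the genes most like Cldn4 in log2 CPM were Epcam (Pearson r 0.997), Krt8 (0.997), Tuba4a (0.997), Krt18 (0.996) and Gas2l3 (0.996), out of 8939 genes at 10 CPM or more. For Cldn1 they were Mllt3, Abcb1a and Zfp827 (each r 0.995) and Dnajb2 and Tln2 (each 0.994). Epcam, Krt8 and Krt18 are epithelial genes. The libraries fall into an oil set and an estradiol set, so they are not 8 independent points and no p is given.

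Of 27 further claudins and claudin domain genes listed, 25 were in the files, 12 had no read in any library and 7 were tested. In the controls 1 rose and 3 fell, and in the deleted libraries 1 rose and 2 fell, all by edgeR's test. Over all tested genes 15.8% rose and 14.0% fell in the controls, and 13.1% rose and 11.2% fell in the deleted libraries. Cldn2, which forms pores for cations and water in leaky epithelia, rose from 3 reads in the 2 control oil libraries to 115 in the 2 control estradiol libraries. The ratio, scaled by depth, was 33.6 (95% exact counting interval 11.2 to 165.5). In the deleted libraries it rose from 8 to 122 reads, a ratio of 16.5 (8.10 to 39.0). The intervals cover counting error only. Cldn2 had log2 differences of 4.97 ± 0.51 (edgeR adjusted p 7.41e-04) and 3.99 ± 0.44 (edgeR adjusted p 0.00118) and was called in all 17 other settings that gave a value in each genotype.

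Cldn5, the claudin of blood vessel endothelium, fell in both genotypes. It held 136 and 243 CPM in control oil and 42.3 and 52.7 CPM in control estradiol libraries. The deleted oil libraries were at 156 and 179 CPM and deleted estradiol libraries 37.4 and 36.1 CPM. The log2 differences were -1.99 ± 0.27 (edgeR adjusted p 0.00174) and -2.19 ± 0.28 (edgeR adjusted p 0.00180). The 14 endothelium markers, which include Cldn5 itself, summed to 2484 and 3281 CPM in control oil and 2583 and 2726 CPM in control estradiol libraries. In the deleted libraries they were 2532 and 2765 CPM with oil and 2059 and 2383 CPM with estradiol.

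Cldn8, a barrier claudin of kidney and gut, fell in the controls, from 66 and 25 reads to 3 and 7 (log2 difference -3.30 ± 0.65, edgeR adjusted p 0.00696). In deleted stroma it had 22 and 13 reads with oil and 4 and 6 after estradiol, a log2 difference of -1.68 that did not pass (edgeR adjusted p 0.105). The call in the controls ended without control estradiol library 1 (edgeR adjusted p 0.0639). Cldn11, known from myelin and Sertoli cells, fell by 1.93 ± 0.51 (edgeR adjusted p 0.0213) in the controls. After deletion it fell by 2.44 ± 0.56 (edgeR adjusted p 0.0152). The Cldn11 call in the controls ended without control oil library 1 or control estradiol library 2. It also ended without both first oil libraries and when only the 2 compared groups were fitted. In deleted stroma the Cldn11 call ended without deleted oil library 1 or either deleted estradiol library. Cldn12, Cldn15 and Cldnd1 were not called, at 0.10, 0.11 and -0.03 in the controls and 0.23, 0.91 and 0.31 in deleted stroma.

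Among tight junction partners outside the 9, most of the genes called had fallen. Of 48 listed scaffold, polarity and adhesion genes, 45 were tested, and in the controls 9 fell and 0 rose by edgeR's test. With Atg7 deleted 8 fell and 1 rose, and 7 genes fell in both. These 2 comparisons use different libraries, but 1 fit with a shared estimate of the spread gave both, so their calls are not independent. The share of all tested genes that fell in both is not given here. The median log2 difference was -0.46 and -0.49, beside 0.01 and 0.02 over all genes. The 9 called of 45 in each genotype stand beside 29.8% and 24.3% over all genes. By direction, 14.0% of all tested genes fell and 15.8% rose in the controls. In the deleted libraries 11.2% fell and 13.1% rose. Single libraries moved these counts: in the controls 2 were called without control estradiol library 1, 5 without control estradiol library 2 and 18 without control oil library 2. In deleted stroma 1 was called without estradiol library 1, 2 without estradiol library 2, 1 without oil library 1, and 14 and 15 without control oil library 1 and 2.

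Among the partners, Magi1, a scaffold under the membrane, fell by 1.06 ± 0.18 (edgeR adjusted p 0.00399) in the controls and fell by 1.22 ± 0.18 (edgeR adjusted p 0.00310) in the deleted libraries. Its 2 control oil libraries held 51.7 and 60.4 CPM and its control estradiol libraries 27.0 and 26.9 CPM. Deleted stroma held 54.0 and 50.4 CPM with oil and 23.2 and 21.5 CPM with estradiol. Cgn, coding for cingulin, which links the junction to the cytoskeleton, fell by 2.08 ± 0.44 (edgeR adjusted p 0.00923) and fell by 1.82 ± 0.44 (edgeR adjusted p 0.0188). The calls of Magi1 held in all 18 other settings, while that of Cgn ended without control estradiol library 1 (edgeR adjusted p 0.0809) and, in the deleted libraries, without either estradiol library or oil library 1 (edgeR adjusted p up to 0.125). Cgn held 241 and 111 CPM in control oil and 33.2 and 49.9 CPM in control estradiol libraries. Marveld2 (tricellulin, at the corners between cells), Pard6g (a polarity protein) and Epcam also fell in both genotypes. In the controls the log2 differences were -1.46 ± 0.34 for Epcam and -1.05 ± 0.24 for Pard6g. Epcam was no longer called there without control estradiol library 1, nor Pard6g without control estradiol library 2 or control oil library 1 (edgeR adjusted p up to 0.103 and 0.0894). In deleted stroma both lost their calls without either estradiol library or oil library 1 (edgeR adjusted p up to 0.129 and 0.123). Amotl1, which codes for an angiomotin relative, was the partner that rose in the deleted libraries, by 0.98 ± 0.24 (edgeR adjusted p 0.0196). Epcam and 3 further partners are also in the epithelium list. Outside it 41 partners were tested, of which 6 fell in the controls, while 6 fell and 1 rose in the deleted libraries. These counts are near the 14.0% and 11.2% of all tested genes that fell.

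Adherens junction and desmosome genes, which join cells mechanically, gave 19 tested genes, of which 7 fell and 1 rose in each genotype, where 14.0% of all tested genes fell and 15.8% rose in the controls and 11.2% fell and 13.1% rose in deleted stroma. Ppl, coding for periplakin, fell by 2.86 ± 0.45 (edgeR adjusted p 0.00279) in the controls, and Evpl, coding for envoplakin, fell by 2.77 ± 0.48 (edgeR adjusted p 0.00403). Pvrl2 and Mllt4, which code for nectin-2 and its partner afadin, fell by 1.92 ± 0.41 (edgeR adjusted p 0.00958) and fell by 0.94 ± 0.23 (edgeR adjusted p 0.0167) in the controls, calls that both ended without control estradiol library 1, and for Mllt4 also without control estradiol library 2 or control oil library 1 (edgeR adjusted p up to 0.0801 and 0.0950). Pvrl3, the nectin-3 gene, rose by 1.05 ± 0.27 (edgeR adjusted p 0.0188) in the controls. Among 19 tested regulators of epithelial junctions, 3 fell, 1 rose and 15 were not called in the controls. In deleted stroma 2 fell, 1 rose and 16 were not called. The falls are near the 14.0% and 11.2% of all tested genes that fell, and the median log2 differences were -0.32 and -0.04. Grhl1, a grainyhead transcription factor of epithelia, fell by 3.11 ± 0.43 (edgeR adjusted p 0.00187) and in the deleted libraries fell by 2.89 ± 0.46 (edgeR adjusted p 0.00376). Pax8, of the glandular and ductal epithelium, fell by 0.96 ± 0.29 (edgeR adjusted p 0.0350) in the controls and by 1.33 ± 0.30 (edgeR adjusted p 0.0139) in deleted stroma. Its control call was lost without control oil library 1 or either control estradiol library. That call was also lost without both first oil libraries and when only the 2 compared groups were fitted. Its call in deleted stroma was lost without deleted oil or estradiol library 1. Klf5, an epithelial transcription factor, fell by 1.37 ± 0.43 (edgeR adjusted p 0.0400) in the controls, a call that ended in 7 of the other settings. In deleted stroma Klf5 did not pass (log2 difference -0.93 ± 0.43, edgeR adjusted p 0.139). Snai2, which codes for Slug, a repressor of epithelial junction genes, rose by 1.19 ± 0.33 (edgeR adjusted p 0.0251) in the controls and by 1.66 ± 0.34 (edgeR adjusted p 0.00980) in deleted stroma. The calls of Grhl1 held in all 18 other settings in each genotype. In the controls Pvrl3 was no longer called without oil library 1 or estradiol library 1, or when only the 2 compared groups were fitted. Snai2 lost its call in the controls without oil library 1 or either estradiol library. It also lost that call without both first oil libraries and when only the 2 compared groups were fitted. In the deleted libraries Snai2 lost its call without either oil library or estradiol library 1.

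The deletion itself changed none of the 9 genes by edgeR at an adjusted p under 0.05, in oil, after estradiol or over both. Over all genes 0% was called in each of these comparisons, and unadjusted p-values under 0.05 were found for 2.54%, 3.02% and 4.07% of genes. For the 9 members there were 0 such unadjusted p-values in each, and DESeq2 called 0. The Cldn1 and Cldn4 values share their control libraries with the differences they were picked for. In oil all 9 log2 differences between deleted and control were below 0, from -0.55 ± 0.58 for Cldn4 to -0.09 for Cldn23. Cldn1 was at -0.47 ± 0.49. No oil group lay wholly below or above the other for the 9, against 24.5% of all tested genes in either direction. Without control oil library 1 the direction turned for 8 of the 9 genes.

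After estradiol, Ocln and F11r had both deleted libraries below both controls, against 18.2% of all tested genes (34.2% in either direction). None of the 9 had both deleted libraries above both controls, against 16.0%. The median over the 9 was -0.39 in oil and -0.24 after estradiol, beside -0.01 over all genes in each. With 2 libraries a group the intervals are wide: that of Cldn4 in oil ran from -1.86 to 0.76.

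The estradiol differences of the 2 genotypes were compared by an interaction term. Of the 7 genes tested, 0 were called by edgeR or by DESeq2, and 0 had an unadjusted p under 0.05, while 0% of all genes was called and 1.57% had an unadjusted p under 0.05. The interaction, estradiol effect in deleted minus that in control, ran from -0.38 to 0.37 over the 7 on the log2 scale. For Cldn4 it was 0.05 ± 0.82 and for Cldn1 0.58 ± 0.80, as a description. The 95% interval of the Cldn3 interaction ran from -1.55 to 2.06, which holds a difference between the genotypes of over 2-fold in either direction.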

How the data were processed

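RNA was measured in 8 libraries, 2 in each of 4 groups taken from the sample titles. The deposited files hold whole-number counts per gene symbol, which the authors made with Bowtie2 on mm10, per the submitters' processing notes. The sources used here do not give the counting tool or strand. Each file has 23282 lines for 23238 symbols. For 35 repeated symbols only the line with most reads was used, which left out 0.0973% of counts and touched 0 members. Genes were filtered with filterByExpr (minimum count 10, minimum total 15), leaving 13347 genes with 99.9% of kept counts, and scaled by TMM (factors 0.918 to 1.03). A single edgeR 4.0.16 quasi-likelihood fit in R 4.3.3 over all 4 groups, with 4 residual degrees of freedom, gave every contrast, and p-values were adjusted by Benjamini-Hochberg over all tested genes at 0.05. The script was tested on simulated data. DESeq2 1.42.0, other scalings and filters, a replicate block, fits of only the compared groups and leaving out each library were alternatives.

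The members and gene lists were chosen with earlier results of these data known. Named genes follow a rule. It takes all 9 members, every other claudin with a mean of at least 1 CPM, and the 5 genes most like Cldn1 and Cldn4. It also takes up to 4 called genes of lowest adjusted p per further list and contrast. Of a marker list it takes the 3 highest genes (given for epithelium and fibroblasts). Marveld2, Amotl1, Sprr2f, Ltf, Lcn2 and Spp1 were named after their values were seen. Some results under this rule are not reported here. Other marker lists summed to 1777 to 8367 CPM (smooth muscle), 133 to 280.1 CPM (mesothelium, with Calb2 at 0), 223 to 284 CPM (Schwann cells), 154 to 323 CPM (macrophages) and 3.07 to 10.6 CPM (lymphocytes and NK cells). Their part in the results was not tested.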

Additional observations from a re-analysis of the deposited data

How the results depend on the processing

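With 2 libraries a group, few calls held throughout. Deletion counts of the 9 genes and interaction counts of the 7 tested genes were 0 under every setting that gave a value. Members called for estradiol numbered 1 in the controls and 0 in the deleted libraries. They were 2 and 3 without a filter on low counts, 2 and 2 by DESeq2, and 0 and 3 when only the 2 compared groups were fitted. The call of Cldn3 ended when only these groups were fitted (edgeR adjusted p 0.0513). Left-out libraries gave 0 to 4 and 0 to 3. Without the first oil library of both genotypes, a setting chosen after the data were seen, 2 and 2 were called, and Cldn10 then rose (edgeR adjusted p 0.0142 and 0.00347).

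The main fit did not pair libraries by replicate number. Deviations of same-numbered libraries from their group means correlated at 0.552 between the 2 oil groups and 0.264 between the 2 estradiol groups. Between oil and estradiol groups they correlated at -0.263 to -0.00504. With a replicate block the members called were 1 and 1, and the edgeR adjusted p of Cldn3 in the controls was 0.0552. A crossed replicate block, chosen after the data were seen, called 3 and 5 members, 18 and 17 tight junction partners, and 5 other claudins in the deleted libraries.

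Partners called, 9 in each genotype, were 16 and 15 without a filter, 14 in the controls by DESeq2, and 14 in the deleted libraries when only the compared groups were fitted. Left-out libraries gave 2 to 18 and 1 to 15. Other claudins called, 4 and 3, were 1 and 1 under a stricter filter, which tests fewer of them, and 3 to 4 and 2 to 4 with a library left out. Over all genes, 3978 calls in the controls were 2305 with only the compared groups and 1505 to 4168 with a library left out, and 3242 in the deleted libraries were 740 to 4345. Counts of the adherens junction and regulator lists were not recomputed, only their named genes.

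Directions turned where a library was left out, and the cause was not tested. For deletion in oil the ranges of log2 differences were -1.07 to 0.21 for Cldn1, -1.27 to 0.48 for Cldn3, -1.32 to 0.41 for Cldn4, -0.80 to 0.67 for Cldn7, -1.13 to 0.17 for Cldn10, -1.12 to 1.06 for Cldn23, -1.06 to 0.67 for Ocln and -0.77 to 0.33 for F11r. For deletion after estradiol they were -0.52 to 1.17 for Cldn1, -0.69 to 0.36 for Cldn3, -1.01 to 0.29 for Cldn4, -1.04 to 0.11 for Cldn7, -0.28 to 0.14 for Cldn10 and -0.95 to 0.22 for Cldn23. For estradiol in the controls they were -0.88 to 0.63 for Cldn7, -0.056 to 0.995 for Cldn10 and -1.76 to 0.022 for Cldn23, and in the deleted libraries -1.01 to 0.030 for Cldn7 and -0.69 to 0.0059 for Tjp1. Without both first oil libraries, Cldn7 was at 0.58 and 0.020 for estradiol, Tjp1 at -0.70 in the deleted libraries, and Cldn7 at 0.0073 for deletion in oil.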
